A study of Mus musculus with 8 samples.

Results

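Malat1 and Neat1 are long noncoding RNAs that stay in the nucleus, and ENSMUSG00000097971 is the identifier with the highest count in 3 of the 4 input libraries of a study of N6-methyladenosine (m6A) in mouse spermatogenic cells. These 3 genes, of 53465 in the deposited count table, were picked by name and identifier because of their abundance in these same libraries. Their levels and ratios are therefore given as a description and are not tested. Malat1 (ENSMUSG00000092341) and Neat1 (ENSMUSG00000092274) were matched through the authors' peak lists. No symbol is paired with ENSMUSG00000097971 in the lists or in the given RefSeq table, so it is called by its identifier, and it has no peak in any list.

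Spermatogenic cells were taken from the testes of C57BL/6 animals, 12 weeks old and either wild type (WT) or Alkbh5-/- (KO). Alkbh5 is a demethylase that takes m6A off RNA. The cell fractions are named PA and RO in the sample titles, and the series title speaks of pachytene spermatocytes, cells in meiotic prophase, and of round spermatids, which follow meiosis. Methylated RNA immunoprecipitation sequencing (MeRIP-seq) was used, in which RNA fragments of 100 to 200 nt bound by an antibody against m6A are sequenced beside fragments not selected, the input. The 8 samples were an input and an immunoprecipitated library from every combination of genotype and fraction. As 1 library stands for a group, none of the differences has a replicate check. The number of animals behind a library, the way the fractions were separated and the reach of the deletion beyond germ cells are not given in the sources used here.

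Input libraries held between 9921365 and 13147239 counts. Alkbh5 itself was not analysed here, so the genotype labels were not checked on it. As a check of the fractions, 6 of 13 spermatocyte markers and 8 of 13 round spermatid markers had a symbol in the lists. Spermatocyte markers summed to 2922 CPM (counts of a library brought to one common size, here with the TMM factors of edgeR) in WT PA, 2578 in WT RO, 1478 in KO PA and 1643 in KO RO, so that they did not set the fractions apart. Round spermatid markers summed to 242 CPM in WT PA and 451 in WT RO, and to 475 in KO PA and 832 in KO RO. This sum was higher in RO within each genotype, but KO PA stood above WT RO. Only Tssk2 in WT (5.89 CPM in PA, 5.46 in RO) and Tex36 in KO (25.6 and 23.8) were lower in RO. Genes of somatic testis cells were present in every library. In such samples fewer cells of a type and less RNA per cell cannot be told apart.

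Malat1 collects in nuclear speckles, bodies rich in splicing factors. RNase P cuts its end and releases mascRNA, a small tRNA-like RNA, and the remaining RNA ends in a triple helix in place of a poly(A) tail. Neat1 is the scaffold around which paraspeckles form, bodies that hold RNA-binding proteins, and it is made as a short and a long isoform that share their start. Malat1 is among the RNAs long known to carry m6A, where the mark can open a hairpin for the RNA-binding protein Hnrnpc. Ythdc1 is a nuclear reader protein of m6A.

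The 2 genes are neighbours on the minus strand of chromosome 19. In RefSeq's annotation of GRCm38.p6, the assembly of the mm10 build named in the submitters' processing notes, Malat1 spans 5795690 to 5802672 (6983 bp) and Neat1 5824708 to 5845480 (20773 bp), with 22035 bp between them. Frmd8 is the next gene on the Neat1 side. The mascRNA lies at bases 6692 to 6749 of Malat1, counted from its start. Base 1 of the annotated Malat1 RNA was also the outermost base of a peak in all 4 lists, and the sequence around it is shown for this reason. The RefSeq window (GRCm38.p6, chr19:5802623-5802922, minus strand) has the 250 bases before the start in lower case and the first 50 transcribed bases, which lie inside that peak, in capitals.
Malat1: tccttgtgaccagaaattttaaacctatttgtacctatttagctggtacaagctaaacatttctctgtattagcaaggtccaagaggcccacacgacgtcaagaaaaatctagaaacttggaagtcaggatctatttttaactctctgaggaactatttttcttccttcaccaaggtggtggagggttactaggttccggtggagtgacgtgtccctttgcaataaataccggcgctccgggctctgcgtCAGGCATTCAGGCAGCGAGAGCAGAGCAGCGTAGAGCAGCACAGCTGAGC
The letters GGAC, the core of the sequence most often methylated, and the longer GGACT that contains it were searched on both strands. GGAC occurred 0 times on the strand of the RNA and 2 times on the other strand, and 87.7% of 32851 promoter windows of this length hold it on either strand. GGACT had no match, against 45.5% of the windows. Neither was found in the 50 transcribed bases, where 18.9% of all windows have GGAC and 5.76% have GGACT on the strand of the RNA. The 250 bases before the start are not part of the annotated RNA. The start peak ran on to base 271 in WT PA, KO PA and KO RO and to base 211 in WT RO. Its bases past the first 50 were not searched, so the search does not show whether this peak holds either motif. No window was given for Neat1, and the sequence of the other peaks was not used here.

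Malat1 carried the same methylated stretch in all 4 lists. Positions, folds and p-values of the peaks are those of the authors' deposited tables, and a fold is the enrichment by the antibody relative to input. The lists named for WT PA, KO PA and KO RO have 4 peaks in Malat1 each and that for WT RO has 5, all classed as exon of a lincRNA. Many of them repeat each other. Peaks that overlapped on the same strand were joined, which left 2 regions in WT PA, KO PA and KO RO and 4 in WT RO. The first region began at base 1 and the strongest followed further on.

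The strongest region lay at bases 421 to 1499 (WT) and 566 to 1529 (KO) in PA and 660 to 1379 (WT) and 537 to 1499 (KO) in RO. Bases 660 to 1379, which are chr19:5801294-5802013, were covered in all 4 lists. Its peak in WT PA had, by the authors' deposited table, a fold of 9.59 and a log10 p-value of −62900. For KO PA the authors' deposited table gave 6.65 and −13800. For WT RO the authors' deposited table gave 20.5 and −30100, the lowest p-value of that list. The authors' deposited table listed 13.3 and −18100 for KO RO. The p-value itself is listed as 0 in all 4 tables.

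These folds were below the median of their list in PA and above it in RO, while the widths were far above the median in all lists. The peaks of the same list with a lower fold made up 41.1% (WT) and 19.6% (KO) in PA and 60.9% (WT) and 53.6% (KO) in RO. Abundant genes had lower folds in general: for peaks in the 100 genes with the highest counts the median was 6.02 (WT) and 7.52 (KO) in PA and 9.18 (WT) and 7.40 (KO) in RO, against 11.7, 13.0, 15.1 and 12.1 over all peaks. Among those peaks of abundant genes the Malat1 peak stood above 66.5%, 45.5%, 73.3% and 68.3%. It covered 1079 bp (WT) and 960 (KO) in PA and 720 (WT) and 930 (KO) in RO, where the median peak covered 240, 269, 237 and 241 bp. By width it ranked 46 of 7502 peaks, 260 of 9931, 296 of 9418 and 163 of 8846.

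The region at the start of Malat1 was the same to the base in 3 lists. It ran from base 1 to 271 in WT PA, KO PA and KO RO, and to base 211 in WT RO. In the authors' deposited tables its highest fold was 1.98 (WT) and 2.06 (KO) in PA and 2.88 (WT) and 2.07 (KO) in RO. Each list has it 2 times, with ends 1 to 2 bases apart. Of all peaks of the list 1.146% (WT) and 0.755% (KO) in PA and 2.40% (WT) and 1.24% (KO) in RO had a lower fold. Among the peaks of the 100 genes with the highest counts these shares were 5.74%, 4.38%, 12.4% and 5.99%.

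Folds of different lists can depend on the depth of their libraries, so the regions were set against each other within a list. The fold of the strongest Malat1 peak, divided by that of the start peak, was 4.84 (WT) and 3.23 (KO) in PA and 7.12 (WT) and 6.43 (KO) in RO. This quotient was higher in RO than in PA in both genotypes, and lower in KO than in WT in both fractions. With 1 list per group and no counts behind the folds, these differences have no error and are not tested. The peaks divided also differ in width between lists, and both were narrowest in WT RO, at 720 and 211 bp.

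Only the WT RO list had further Malat1 regions. One lay at bases 3267 to 3657 (chr19:5799016-5799406) with a fold of 2.48 in the authors' deposited table, and the other at bases 329 to 477 with a fold of 1.16, the lowest of that list. The share of the annotated Malat1 span that all regions covered was 19.3% (WT) and 17.7% (KO) in PA and 21.1% (WT) and 17.7% (KO) in RO. None reached the mascRNA: the last covered base was 5192 bases away from it in WT PA and KO RO, 5162 in KO PA and 3034 in WT RO. Of the 1863 bp covered in any list, 931 were covered in all 4.

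In 3 lists, all but WT RO, a further peak within the strongest region came in 2 blocks with a gap at bases 608 to 649, the same 42 bases each time. The strongest peak of each of these lists, in 1 block, covers the bases of this gap, so they are not free of enrichment. The fold given next is that of the peak in 2 blocks. Its fold was 3.14 in WT PA, 2.20 in KO PA and 1.59 in KO RO in the authors' deposited tables.

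An antisense gene shares this part of the locus. Gm37376 lies on the plus strand and has a peak in the WT PA list at chr19:5801969-5802252 (fold 1.92 in the authors' deposited table), all 284 bp of which lie within the Malat1 peak on the other strand. In the WT RO list it has one at chr19:5802252-5802393 (fold 1.28 in the authors' deposited table), 93 bp of which lie within Malat1 peaks. Input counts of Gm37376 were 61 (WT) and 37 (KO) in PA and 23 (WT) and 28 (KO) in RO, at most 0.0127% of those of Malat1. Strand use in the counting is not given in the sources used here. Without strand the reads of the 2 genes cannot be told apart.

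Neat1 had a single methylated region, in the same place in all 4 lists. It lay at bases 1262 to 1568 (WT) and 1292 to 1509 (KO) in PA and 1262 to 1651 (WT) and 1271 to 1568 (KO) in RO, counted from the annotated start. Each list gave it as 2 overlapping peaks. By the authors' deposited tables its highest fold was 3.87 (WT) and 1.71 (KO) in PA and 14.4 (WT) and 5.61 (KO) in RO. The peaks of the same list with a lower fold made up 9.45% (WT) and 0.222% (KO) in PA. In RO they made up 46.8% (WT) and 18.5% (KO). The Neat1 fold in KO PA was thus near the lowest of its list, 1.42. Bases 1292 to 1509 (chr19:5843972-5844189) were covered in all 4 lists. The region covered between 1.05% (KO PA) and 1.88% (WT RO) of the annotated span. That span is 20773 bp, and the share of the short isoform was not worked out.

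Set against the strongest Malat1 peak of the same list, the Neat1 fold gave a quotient of 0.404 (WT) and 0.257 (KO) in PA and 0.702 (WT) and 0.422 (KO) in RO. The quotient was thus higher in RO than in PA in both genotypes and lower in KO than in WT in both fractions, the same order as for the Malat1 regions. The strongest Malat1 peak enters both quotients, in opposite places, and peak widths differ between lists here too. Input counts of Neat1 were 122259 (WT) and 46430 (KO) in PA and 20461 (WT) and 17471 (KO) in RO, so that the higher folds of RO stood beside the lower counts. Between genotypes it was otherwise, as both the counts and the folds were lower in KO in each fraction.

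**Figure D1:**
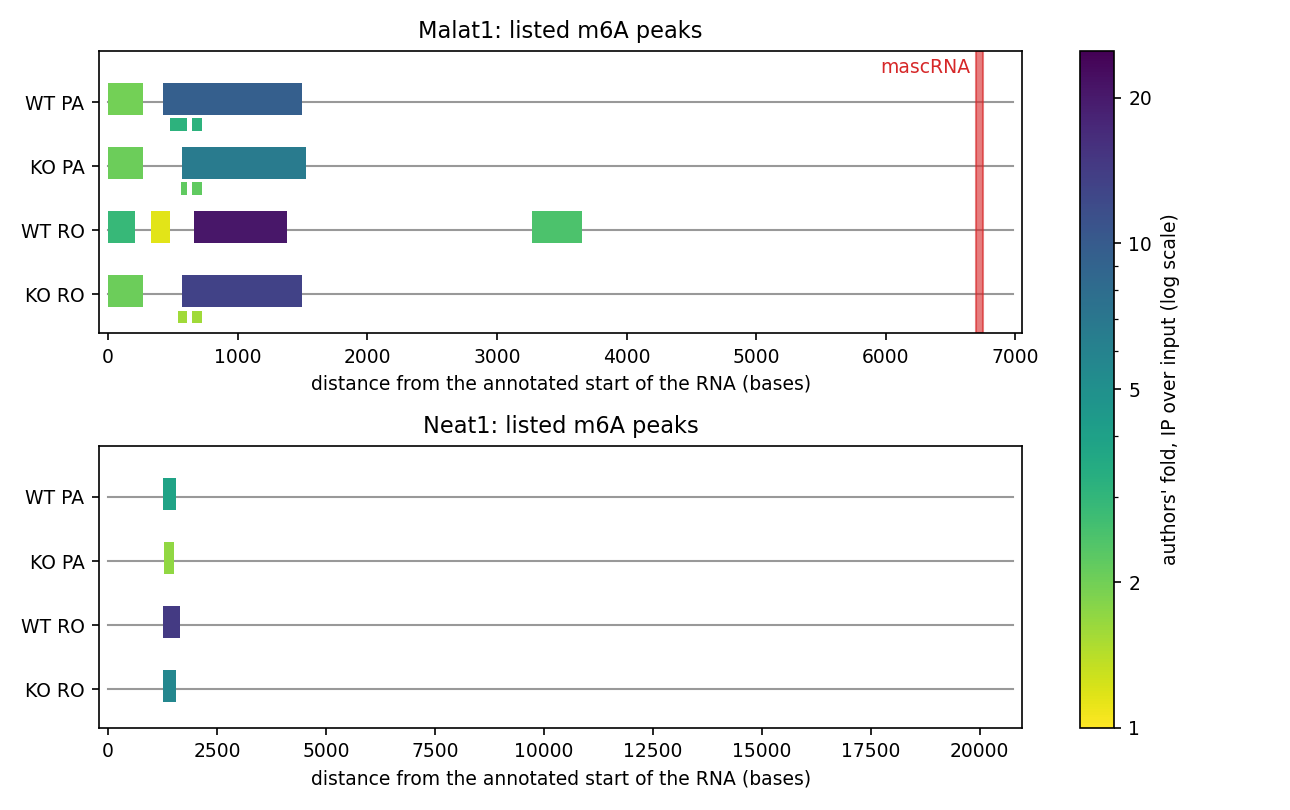
Peaks listed in Malat1 (top) and Neat1 (bottom) for the 4 peak lists, by distance in bases from the annotated start of each RNA, with the fold of the authors' tables as colour on a log scale. Narrow bars below a line are the peaks in 2 blocks. They share the gap at bases 608 to 649, which the strongest peak of the same list covers. All lists share the regions at bases 660 to 1379 of Malat1 and 1292 to 1509 of Neat1.

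Malat1 was most abundant in WT PA. Its counts were 912335 (WT) and 303065 (KO) in PA and 250306 (WT) and 220579 (KO) in RO. In the same order these are 6.94%, 3.05%, 2.07% and 2.17% of the libraries, and 4 values given without names below keep this order. The Wilson 95% interval, which covers counting error only, was 6.93% to 6.95% in WT PA. Reads copied by PCR are not independent molecules, so the interval can be too narrow even for that error. WT PA stood far above the other 3 libraries, and the RO libraries were nearly level. Malat1 ranked first in WT PA and second in the others.

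Neat1 followed the same order of fractions with a wider range. Its share was 0.930% (WT) and 0.468% (KO) in PA and 0.169% (WT) and 0.172% (KO) in RO. Both PA libraries stood above both RO libraries, and the RO libraries again were nearly level. By count Neat1 was number 3 in both PA libraries, 21 in WT RO and 10 in KO RO.

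ENSMUSG00000097971 was abundant in every library. Its counts were 597605 (WT) and 496485 (KO) in PA and 512626 (WT) and 601246 (KO) in RO, which are 4.55%, 5.004%, 4.24% and 5.92% of the libraries. Its share varied far less than those of Malat1 and Neat1. Together the 3 genes took 12.4% (WT) and 8.53% (KO) of PA and 6.48% (WT) and 8.27% (KO) of RO. Apart from the 3, no gene took more than 0.696% of a library (ENSMUSG00000065037 in WT RO, without a symbol), which is above the share of Neat1 in that library. In KO PA the next gene was Gm42418 with 0.402%, close to Neat1. The most abundant other genes also included Dnah8, a dynein heavy chain of the sperm tail, with 0.432% of WT PA, Fsip2, a fibrous sheath protein, with 0.300% of KO RO, and ENSMUSG00000064351 (no symbol) with 0.384% of WT RO.

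**Figure D2:**
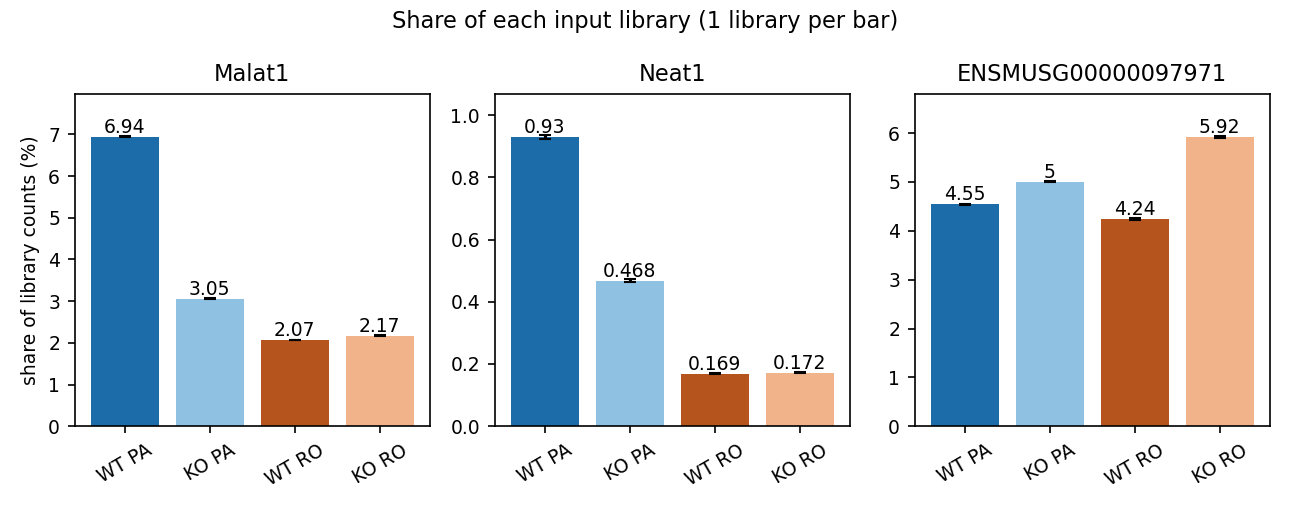
Share of the counts of each input library, in percent, taken by Malat1, Neat1 and ENSMUSG00000097971, with Wilson 95% intervals for counting error and 1 library per bar. Malat1 and Neat1 are highest in WT PA (6.94% and 0.930%), and ENSMUSG00000097971 lies between 4.24% and 5.92% in all libraries.

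Ratios within a library need no scaling. The counts of Malat1 divided by those of Neat1 were 7.46 (WT) and 6.53 (KO) in PA and 12.2 (WT) and 12.6 (KO) in RO. The quotient was nearly the same in both RO libraries and lower in both PA libraries, so that Neat1 differed more between the fractions than Malat1. Divided by those of ENSMUSG00000097971, the Malat1 counts gave 1.53 (WT) and 0.610 (KO) in PA and 0.488 (WT) and 0.367 (KO) in RO.

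The first comparison is that of genotypes. The PA libraries also differed in their marker sums. Spermatocyte markers were at 1478 CPM in KO against 2922 in WT, and round spermatid markers at 475 against 242. By gene, 3 of 6 spermatocyte markers were at least 2-fold lower in KO PA, beside 19.9% of all genes tested. The others ranged from −0.09 (Sycp1) to −0.33 (Mlh3) on the log2 scale. Of 8 round spermatid markers 6 were at least 2-fold higher, beside 23.8% of all genes, whereas Acrv1 (−0.10) and Acr (−0.49) were not. The part of cell make-up in the ratios below was not tested. In PA, Malat1 was 2.78-fold lower in KO, at 27971 CPM against 77873 (log2 ratio −1.48, exact binomial 95% interval for counting error −1.48 to −1.47), and Neat1 was 2.44-fold lower, at 4285 CPM against 10435 (log2 ratio −1.28, −1.30 to −1.27). ENSMUSG00000097971 had a log2 ratio of −0.15. Thus 2 of the 3 genes differed at least 2-fold, a share to be read against 43.7% of the 24331 genes that reached a CPM of 1 in one or both PA libraries, and both were lower, as were 19.9% of all. With scaling by library totals the Neat1 ratio was −0.99, just under 2-fold.

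Genes with many counts were also set beside the members, although Malat1 and ENSMUSG00000097971 have far more counts than any of them. Of 740 other genes with a summed count of at least 5000 in the PA libraries, 54 had a ratio as far from 0 as Malat1 and 75 as far as Neat1. The median of such genes was −0.39 and their robust SD (scaled median absolute deviation) 0.60. With the members included, 132 of 741 such genes were at least 2-fold apart. The difference of Malat1 from that median was thus under 2 such SDs, and Neat1 was nearer still.

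In RO the genotypes were close. Malat1 stood at 20171 CPM in KO against 21711 in WT (log2 ratio −0.11) and Neat1 at 1598 against 1775 (−0.15). Of 724 other genes with that many counts, 620 had a ratio as far from 0 as Malat1 and 584 as far as Neat1. With library totals alone both ratios turned positive, to 0.069 and 0.023. ENSMUSG00000097971 had a log2 ratio of 0.31, with 54982 CPM in KO and 44465 in WT. None of the 3 genes differed 2-fold, as 42% of 24763 genes did. Among genes with at least 5000 counts, members included, 107 of 725 did.

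The second comparison is that of the cell fractions. In WT, Malat1 was 3.59-fold lower in RO than in PA (log2 ratio −1.84, −1.85 to −1.84) and Neat1 5.88-fold lower (−2.56, −2.58 to −2.53). Of 880 other genes with that many counts, 3 had a ratio as far from 0 as Malat1 and 1 as far as Neat1, around a median of −0.06 with a robust SD of 0.35. ENSMUSG00000097971 had −0.20. That 2 of 3 genes were 2-fold apart stands beside 40.2% of 23979 genes, of which 18.7 percentage points were lower in RO. Among genes with at least 5000 counts, members included, 37 of 881 were 2-fold apart.

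In KO the ratios of Malat1 and Neat1 were nearer to 0 than in WT, and that difference was not tested. Neat1 was 2.68-fold lower in RO, at 1598 CPM against 4285 (log2 ratio −1.42, −1.45 to −1.40), and Malat1 1.39-fold lower, at 20171 against 27971 (−0.47). None of 578 other genes with that many counts had a ratio as far from 0 as Neat1, and 69 had one as far as Malat1 (median 0.04, robust SD 0.24). ENSMUSG00000097971 had 0.26. At 2-fold, 1 of 3 genes passed, beside 32.7% of 24806 genes. Of the genes with at least 5000 counts, members included, 3 of 579 passed. Comparisons that share a library are not independent: WT PA enters the first genotype ratio and the first fraction ratio of both RNAs.

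**Figure D3:**
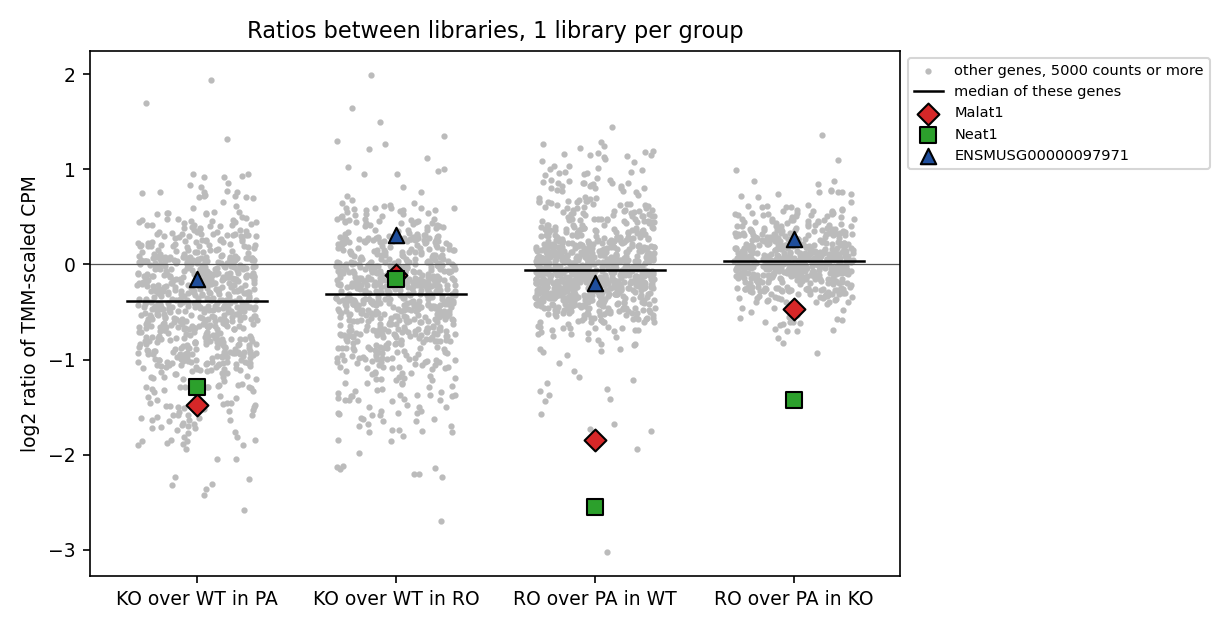
Log2 ratios of TMM-scaled CPM for Malat1, Neat1 and ENSMUSG00000097971 in the 4 comparisons, on grey points for the other genes with a summed count of at least 5000, whose median is the black line, with 1 library per group. Neat1 has the lowest ratio for RO over PA in KO (−1.42), and Malat1 and Neat1 lie near 0 for KO over WT in RO (−0.11 and −0.15).

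By level the order of Malat1 was WT PA, KO PA, WT RO and KO RO. The step from WT PA to KO PA was 1.48 on the log2 scale, whereas those from KO PA to WT RO (0.37) and from WT RO to KO RO (0.11) were smaller than the robust SD of genes with at least 5000 counts between the same libraries (0.68 and 0.54). The order was the same for Neat1, with steps of 1.28, 1.27 and 0.15, of which the last was smaller than that SD. The order of ENSMUSG00000097971 was KO RO, WT PA, KO PA and WT RO, and all its steps (0.11, 0.15 and 0.04) were smaller than the SD of the pair, which was 0.60 or more.

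The weight of these RNAs bears on how libraries are scaled. Under library totals, leaving the 3 genes out moved the genotype ratio of every other gene by −0.0627 (log2) in PA and 0.0278 in RO, and the fraction ratio by −0.0945 in WT and −0.00409 in KO. Malat1 alone accounted for −0.0590 in PA and −0.0736 between fractions in WT. TMM factors were 0.891 (WT) and 1.09 (KO) for PA and 0.954 (WT) and 1.08 (KO) for RO. Without the 3 genes they were 0.926, 1.09, 0.928 and 1.07, and the ratios of all other genes moved by at most 0.00469 (log2) once totals and factors were both recomputed. Totals alone differed from TMM by 0.29 in the genotype ratio of PA and 0.18 in that of RO, more than leaving out the 3 genes did. Of the genes past 2-fold in PA, 54.4% were higher in KO with TMM and 65.5% with totals.

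**Figure D4:**
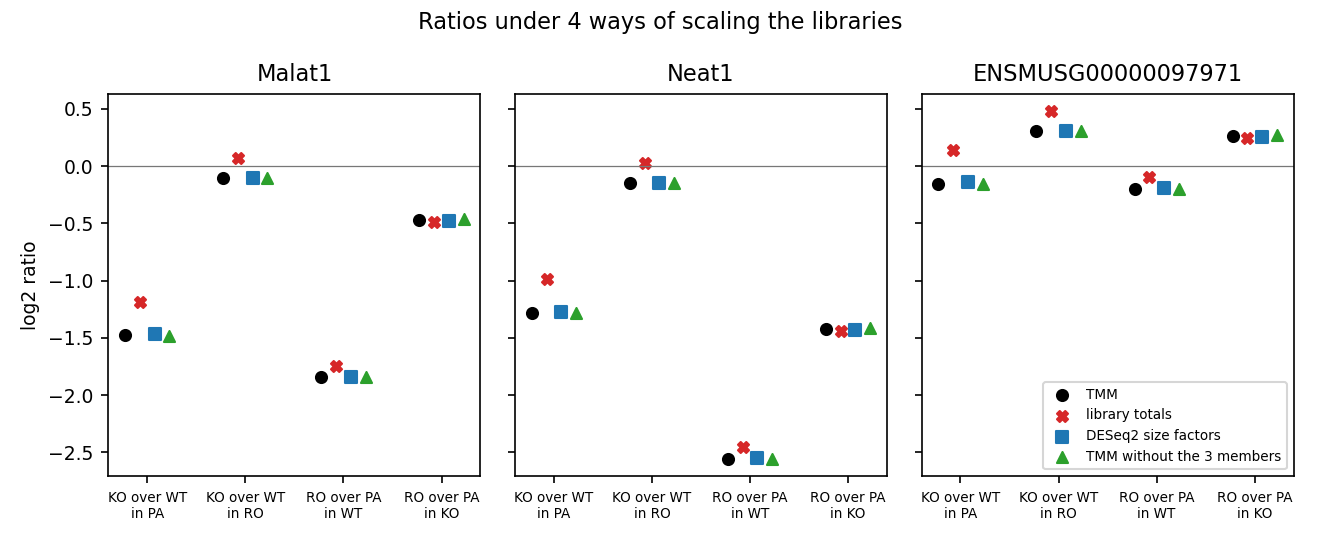
Log2 ratios of the 3 genes in the 4 comparisons under TMM factors, library totals, DESeq2 size factors and TMM factors computed without the 3 genes. Library totals shift KO over WT upward, from −1.48 to −1.18 for Malat1 in PA and across 0 in RO, while the other 3 settings lie close together.

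Genes with a profile over the 4 libraries most like that of a member were sought among 5309 genes that had a symbol and reached a CPM of 10 in every library, by Euclidean distance between log2 CPM centred on the mean of each gene. Nearest to Malat1 were Rapgef4 (distance 0.21), an exchange factor for Rap GTPases that senses cyclic AMP, Pgbd5 (0.28), derived from a piggyBac transposase, and Plxnb1 (0.29), a semaphorin receptor. Rapgef4 had 1210 counts (WT) and 480 (KO) in PA and 350 (WT) and 293 (KO) in RO. Nearest to Neat1 were Gadd45g (0.25), a stress response gene, Snhg11 (0.51), a host gene of small nucleolar RNA, and Aldh1l1 (0.52), an enzyme of folate metabolism. Snhg11 had 2577, 654, 342 and 381 counts. Malat1 came 14 in the order of likeness to Neat1, and Neat1 came 112 in that to Malat1, at the same distance of 0.84. With 4 libraries such likeness is a description only.

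Nearest to ENSMUSG00000097971 were Pole (0.040), the catalytic subunit of DNA polymerase epsilon, Peg3 (0.067), an imprinted zinc finger gene, and Zfp850 (0.086). Gm42418, chosen after its values were seen because it was also among the most abundant genes, had a distance of 0.21 and was 130 in the order of likeness. RefSeq has Gm42418 as a synonym of Rn18s-rs5, a pseudogene related to 18S ribosomal RNA (chr17:39846354-39848202). It had 47717 counts (WT) and 39892 (KO) in PA and 35599 (WT) and 50759 (KO) in RO. ENSMUSG00000097971 had 12.5, 12.4, 14.4 and 11.8 times as many. The handling of reads that match several genes is not given in the sources used here, so the counts of such rows are uncertain.

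Markers of other cell types were set beside these levels. Of 8 Leydig cell markers 3 had a symbol, the steroid enzymes Cyp11a1 and Hsd3b1 and the luteinizing hormone receptor Lhcgr, and none of them was at 0 in any library. They summed to 155 CPM (WT) and 45.2 (KO) in PA and 47.6 (WT) and 17.4 (KO) in RO. Cyp11a1 had 876, 226, 181 and 105 counts, the order of Malat1 and Neat1. Hsd3b1 with 722, 207, 297 and 78 counts and Lhcgr with 223, 57, 71 and 7 had another order, with WT RO above KO PA. In likeness to Neat1 the places were 5 for Cyp11a1, 107 for Hsd3b1 and 1741 for Lhcgr, and in likeness to Malat1 they were 51, 920 and 4760. For KO over WT in RO, where Malat1 and Neat1 were near 0, the log2 ratios were −0.70 for Cyp11a1, −1.83 for Hsd3b1 and −2.95 for Lhcgr. Their part in the levels of Malat1 and Neat1 was not tested.

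Markers of other somatic cells were summed in the same way. Sertoli cell markers (5 of 11 with a symbol) summed to 255 CPM (WT) and 328 (KO) in PA and 180 (WT) and 206 (KO) in RO. Endothelial markers (5 of 7) summed to 180, 242, 93.7 and 238, macrophage markers (2 of 6) to 46.6, 71.3, 60.2 and 82.1, and Myh11, the only peritubular marker of 5 with a symbol, to 286, 272, 142 and 226. Spermatogonium markers (3 of 7) summed to 30.6, 60.3, 23.4 and 42.4. None of these markers was at 0 in a library. No erythroid marker of 3 had a symbol.

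**Figure D5:**
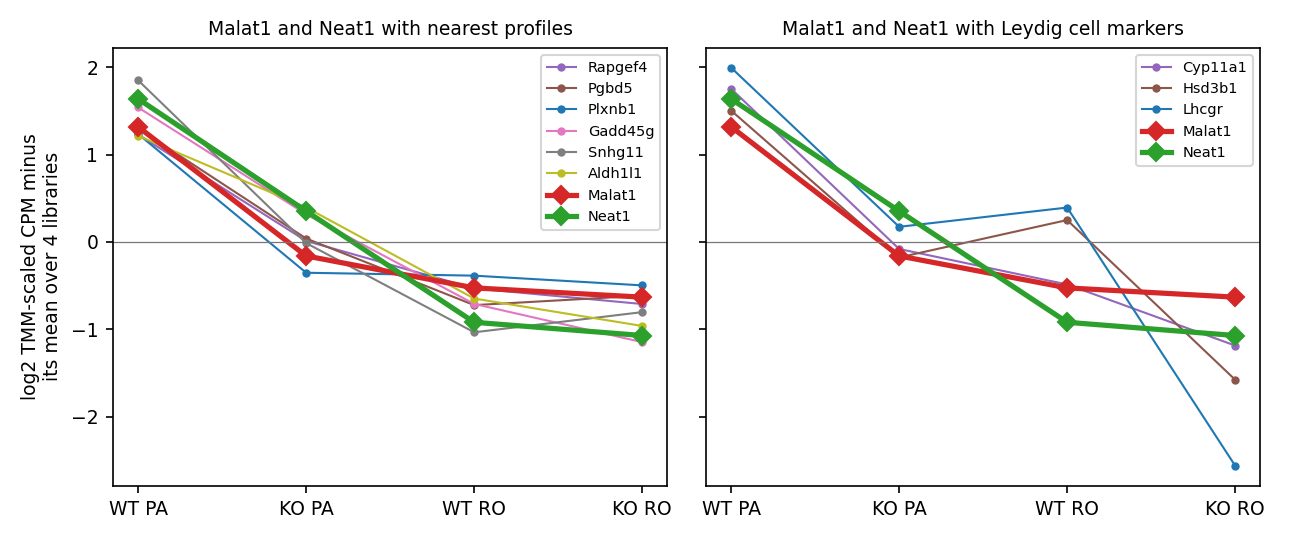
Log2 TMM-scaled CPM of Malat1 and Neat1 in the 4 input libraries, less the mean of each gene over them, with the 6 genes of nearest profile (left) and the 3 Leydig cell markers (right). All of these genes are highest in WT PA, Malat1 at 1.32 and Neat1 at 1.64 above their means, and Lhcgr is lowest in KO RO at −2.56.

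The mRNAs for proteins of the nuclear bodies were then counted. A gene has a symbol here only if it has a peak in some list, so each gene list is measured in part. Over all genes tested the median log2 ratios were 0.03 (PA) and 0.04 (RO) for KO over WT, and 0.00439 (WT) and 0.012 (KO) for RO over PA. Among nuclear speckle proteins (11 of 18 with a symbol), 4 were at least 2-fold lower and 0 higher in KO in PA, with a median log2 ratio of −0.87. Of all genes tested 19.9% were 2-fold lower and 23.8% higher, and the genes with at least 5000 counts had a median of −0.39, with 132 of 741 at least 2-fold apart. The 4 were Srsf1, Srsf5 and Srsf11, splicing factors of the SR family, and Pnn, a desmosome and speckle protein. Srsf5 had 5524 counts in KO PA against 14913 in WT PA (−1.32). Srrm2, the large scaffold of speckles and the most abundant of the list, had 17324 against 33478 (−0.84), and Son, another scaffold, 13878 against 20038 (−0.42). In RO, 1 was 2-fold lower, Srsf5 (−1.09), beside 18.9% of all genes tested, and the median was −0.53. Between fractions none was 2-fold apart, with a median of −0.29 in WT and 0.01 in KO. Over all genes tested 40.2% were 2-fold apart in WT and 32.7% in KO.

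Paraspeckle proteins (14 of 24 with a symbol) had a median of −0.32 for KO over WT in PA. There 1 was higher (Rbm12) and 2 lower (Hnrnph3 and Cpsf7). In RO the median was −0.17, with 1 higher (Rbm12) and 1 lower (Hnrnph3). Over all genes tested 23.8% were 2-fold higher and 19.9% lower in PA, and 23.1% and 18.9% in RO. Sfpq, a core paraspeckle protein that binds Neat1, had 11289 counts (WT) and 7666 (KO) in PA and 7676 (WT) and 7031 (KO) in RO. Its log2 ratio was −0.45 in PA and −0.05 in RO, and −0.53 for RO over PA in WT. Hnrnpm, a splicing regulator, had −0.94 in PA and −0.51 in RO. For RO over PA 1 was higher in WT (Rbm14, 1.14) and none differed 2-fold in KO, with medians of −0.27 and −0.04. Over all genes tested 21.5% were 2-fold higher and 18.7% lower in WT, and 17.5% and 15.1% in KO.

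Of the proteins known to bind Malat1 or its m6A, 3 of 6 had a symbol. Ythdc1, the nuclear m6A reader, had log2 ratios of 0.43 in PA and 0.27 in RO for KO over WT, and Tardbp, an RNA-binding protein that is also on the paraspeckle list, −0.44 and 0.13. Mettl16, a methyltransferase that binds the Malat1 triple helix, had 0.22 and 1.04, and it was 2-fold lower in RO than in PA in WT (−1.08). None of the 3 was 2-fold apart in PA, beside 43.7% of all genes tested. Mettl16 was the 1 of 3 that was 2-fold higher in KO in RO, beside 23.1% of all genes tested. It was also the 1 of 3 lower for RO over PA in WT, beside 18.7%.

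Other long noncoding RNAs (8 of 24 with a symbol) were compared as well. For RO over PA in WT 3 of the 8 were at least 2-fold lower and 0 higher: Snhg11 (−2.88), Meg3 (−1.66), an imprinted RNA, and Firre (−1.55), which anchors nuclear architecture. Of all genes tested 18.7% were 2-fold lower and 21.5% higher. The median of the 8 was −0.93. In KO it was −0.41, with 1 higher, Pvt1 (1.17), and 0 lower, beside 17.5% higher and 15.1% lower over all genes tested. Kcnq1ot1, the imprinted antisense RNA with the most counts of the list, was level, with 10215 counts (WT) and 9227 (KO) in PA and 10468 (WT) and 9792 (KO) in RO. The RNA with the next most counts, 1700020I14Rik, had log2 ratios of 0.76 in PA and 1.27 in RO for KO over WT. For KO over WT, Xist, the RNA of X inactivation, was higher in both fractions (1.53 in PA and 1.89 in RO) on 220 counts or fewer. In PA 1 of 8 was higher and 1 lower (Snhg11, −1.86), with a median of −0.24. In RO 3 were higher, with a median of 0.56. Over all genes tested 23.8% were 2-fold higher and 19.9% lower in PA, and 23.1% and 18.9% in RO.

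The genes beside the locus were counted too. Of 14 genes listed around them 7 had a symbol. For RO over PA in WT their median was 0.12, with 1 higher, Tigd3 (1.31), and 0 lower. In KO it was −0.37, with 1 higher (Sipa1) and 1 lower (Ltbp3). For KO over WT it was −0.55 in PA, with 1 higher (Ltbp3) and 1 lower (Sipa1) at 2-fold. In RO it was −0.87, with 2 lower (Pola2 and Pcnx3). Over all genes tested 21.5% were 2-fold higher and 18.7% lower for RO over PA in WT, and 17.5% and 15.1% in KO. For KO over WT these shares were 23.8% and 19.9% in PA and 23.1% and 18.9% in RO. Pcnx3, a membrane protein, had 1836 counts (WT) and 851 (KO) in PA and 1968 (WT) and 666 (KO) in RO. Pola2, a subunit of DNA polymerase alpha, had 1058, 636, 1211 and 489.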

How the data were processed

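Whole-number counts for 53465 Ensembl genes in 4 input libraries and 4 peak lists were analysed as deposited. The submitters' processing notes name cutadapt 2.5, HISAT2 2.1.0, HOMER 4.10.4 and mm10; the counting tool, the peak caller, and the treatment of strand and multi-mapped reads are not given in the sources used here. Per the file headers the columns of a peak include its fold ratio, a p-value and the log10 of its p-value and false discovery rate, all computed by the authors. Each list was assigned by its name. Peak starts were read as 0-based and are printed 1-based; 98.4% of 33192 peaks overlapped the RefSeq gene of their symbol. Symbols came from the lists, which name only genes with a peak (8733 identifiers). TMM factors (edgeR 4.0.16, R 4.3.3) were computed from the 27202 genes that reached a CPM of 1 in any library, and log2 CPM used a prior count of 2. With 1 library per group no test was run. Scripts were tested on simulated data. DESeq2 1.42.0 gave alternative size factors. Members, lists and rules were chosen with earlier results of these data known. Named genes were the members, the 3 nearest profiles of each, the 2 most abundant genes of each list, the next abundant genes of each library, and members of lists past 2-fold; the last, Gm37376, Gm42418 and the markers shown singly were chosen after their values were seen. Python 3.11.15 with scipy 1.17.1 was used for the rest. Intervals cover counting error only.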

Additional observations from a re-analysis of the deposited data

Results flagged for a closer look

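For ENSMUSG00000097971 both contrasts had opposite signs in the 2 groups. The log2 ratio KO over WT was −0.15 in PA and 0.31 in RO, and the ratio RO over PA was −0.20 in WT and 0.26 in KO. Each group is 1 library and the difference was not tested. With library totals the PA ratio was 0.14 and the sign no longer differed between the fractions.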

How the results depend on the processing

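With library totals in place of TMM factors the log2 ratios KO over WT became −1.18 (Malat1), −0.99 (Neat1) and 0.14 (ENSMUSG00000097971, sign reversed) in PA, and 0.069 (Malat1, reversed), 0.023 (Neat1, reversed) and 0.48 (ENSMUSG00000097971) in RO. The ratios RO over PA became −1.74, −2.46 and −0.10 in WT and, for Malat1 and ENSMUSG00000097971, −0.49 and 0.24 in KO. The factor that TMM adds to the totals is the whole of these moves. With DESeq2 size factors the PA genotype ratios were −1.46 for Malat1 and −0.14 for ENSMUSG00000097971, and the KO fraction ratio of the latter 0.26, outside their counting intervals. TMM without the 3 genes, TMM over all genes with a count and a prior count of 0.5 left all 12 ratios within them. A fold of at least 5 left 1 Malat1 peak in each of the 4 lists and 0 Neat1 peaks in WT PA and KO PA, and joining overlapping peaks left 2 Malat1 regions in WT PA, KO PA and KO RO and 1 Neat1 region in each list. A false discovery rate under 0.05 removed none of them, and a reciprocal overlap of 50% changed no count of peaks with a counterpart by over 1.5 times. At a CPM of at least 10 the genes past 2-fold numbered 3318 and 3092 (KO over WT in PA and RO) and 2588 and 1356 (RO over PA in WT and KO), against 10625, 10412, 9646 and 8104. Leaving the other 2 members out of the total moved all 12 shares beyond their counting intervals, that of Malat1 in WT PA to 7.34%. No paired analysis was possible because each group has 1 library. Depth does not limit these genes: the lowest member count was 17471.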
